A study of Homo sapiens with 32 samples.

Results

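The chromatin windows at the transcript starts of 10 genes induced by the hypoxia-inducible factors (HIF) were examined in HEK293T cells treated with dTAGV-1, a degrader that works through the VHL ubiquitin ligase. The genes were VEGFA, CA9, ADM, EGLN3, NDRG1, BNIP3, SLC2A1, PDK1, ANKRD37 and KDM3A. A window of 401 bp was a member when its centre lay within 2000 bp of a GENCODE release 44 transcript start of one of these genes on hg38, which gave 43 of the 212358 windows in the deposited count table. Given the genes, the choice of windows used position alone and no measured value. The genes themselves were chosen with earlier results of these data known. VEGFA and EGLN3 had 8 member windows each, SLC2A1 6, NDRG1 5, ADM and KDM3A 4 each, and CA9, BNIP3, PDK1 and ANKRD37 2 each. All 43 passed the low-count filter and were tested.

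HEK293T is a human embryonic kidney line. All libraries came from 1 clone, named HEK_CloneZD29 in the labels, so that no difference between clones could be seen. The labels of replicates 1 to 8 say that ZNF143, a zinc-finger transcription factor, carries an inducible degron tag in this clone. The field is not filled for replicates 9 to 16, which share the clone name. Counts covered replicates 9 to 16 only: 8 control libraries, labelled DMSO (the solvent) although the protocol text speaks of no treatment, and 8 libraries from cells given 50 nM dTAGV-1 for 30 minutes. From the shared clone name, both groups were taken to carry the tagged ZNF143. A group with dTAGV-1 but without the tag was not analysed here. An effect of the degrader itself and of ZNF143 loss therefore cannot be told apart. Nothing in the labels says that replicates were separate cultures, so the p-values measure only the spread between these libraries, which may be technical. Protein and RNA were not analysed here, nor was any library from cells kept in low oxygen.

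In cells with oxygen, prolyl hydroxylases of the EGLN family modify the HIF alpha subunits, VHL binds the modified form, and the ligase marks it for the proteasome. In low oxygen, or when VHL is lost or blocked, HIF alpha accumulates, pairs with ARNT and binds hypoxia response elements, whose core reads ACGTG or GCGTG. The genes it induces serve glucose uptake and glycolysis, blood vessel growth, pH control and turnover of mitochondria, and some feed back on the oxygen sensor. dTAGV-1 is known to bind a degron tag made from FKBP12 with one end and the HIF-binding pocket of VHL with the other, which raises the question of whether starts of HIF target genes open when it is given.

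The core was found with ACGTG in at least 1 member window of 9 of the 10 genes, on either strand. The match nearest an annotated start is shown for each, with 12 bases to each side, to show the sites that HIF could recognise in these windows. They are hg38 sequences read 5′ to 3′ on the strand that reads ACGTG, with the central ACGTG in capitals. The PDK1 stretch holds a further ACGTG, left in lower case. The hypoxia response element of CA9 is known to lie close to its start, as the core shown does. A match is otherwise a description only. The NDRG1 windows held 0 matches to ACGTG, and GCGTG in 4 of 5.
VEGFA, chr6:43771541-43771569, minus strand, 308 bp downstream of a start: ggcccagatcgtACGTGcggtgactccgg
ADM, chr11:10304248-10304276, minus strand, 811 bp upstream: aatccatcgtaaACGTGaggactgactgc
CA9, chr9:35673898-35673926, minus strand, 16 bp upstream: tgtacgggctgtACGTGcattggaaacga
SLC2A1, chr1:42958292-42958320, plus strand, 368 bp downstream: aggtcgtgtgcgACGTGccgctcccgggc
PDK1, chr2:172556070-172556098, minus strand, 6 bp upstream: ctgccgagtggtACGTGagggacgtggcg
BNIP3, chr10:131982040-131982068, minus strand, 87 bp upstream: cgcacgcgccgcACGTGccacacgcaccc
EGLN3, chr14:33950503-33950531, plus strand, 309 bp downstream: tgcccccgatccACGTGatctggtcgccc
KDM3A, chr2:86440828-86440856, minus strand, 41 bp downstream: gcagggaagagaACGTGcggtttcaggcg
ANKRD37, chr4:185396686-185396714, plus strand, 111 bp upstream: cagtgtttgtgtACGTGcggccgtggcgg

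BNIP3 and ANKRD37 are shown over 125 bases as examples in which several cores lie around the match nearest the start. They were not chosen by a count of cores. Over all windows of a gene, matches to ACGTG numbered 3 at BNIP3, 4 at ANKRD37, 6 at EGLN3 and 4 at PDK1. Both stretches are printed on the strand of the gene, with every ACGTG or GCGTG on either strand in capitals. Matches are counted on each strand, so that the palindrome CACGTG counts as 2. The BNIP3 stretch holds 2 matches to ACGTG, both from 1 such palindrome, and 4 to GCGTG. The ANKRD37 stretch holds 3 matches to ACGTG, 2 of them from 1 palindrome, and 0 to GCGTG.
BNIP3, chr10:131981992-131982116, minus strand: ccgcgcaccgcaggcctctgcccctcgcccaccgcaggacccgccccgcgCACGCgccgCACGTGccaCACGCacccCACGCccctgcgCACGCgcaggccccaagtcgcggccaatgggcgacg
ANKRD37, chr4:185396638-185396762, plus strand: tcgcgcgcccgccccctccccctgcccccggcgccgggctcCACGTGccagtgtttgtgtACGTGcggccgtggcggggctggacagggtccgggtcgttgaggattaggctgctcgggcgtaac

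One of the 2 cores was present in 32 of the 43 member windows, or 74.4%, against 43.5% of all windows of the table. ACGTG was in 15 (34.9%, against 19.9%) and GCGTG in 26 (60.5%, against 30.6%). The member windows were also richer in G and C, with a median of 62.6% against 48.1%, and the part of base composition in these shares was not tested. The ZNF143 core, searched as CCCANAATGC or CCCANCATGC on both strands, was in 0 of 43 member windows and in 1.39% of all windows.

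The most accessible window at the starts of each of the 10 genes was already high in control cells, except at CA9. Levels are given as log2 CPM, the log2 of counts scaled by library size and TMM, with a prior count of 2. Every window has the same length, so levels can be compared between genes. The leading window of a gene is its tested member window with the highest mean level over the 16 libraries. For 9 of the 10 genes the leading window lay in the top decile of all windows, at percentiles 95.8 to 98.5 of the control mean. Leading windows were picked for their level, so a high rank is partly built in. Of all 43 member windows, 18 lay in the top decile and 37 above the median of control level. In control cells the order of mean levels ran from NDRG1 over SLC2A1, EGLN3, ANKRD37, KDM3A, BNIP3, ADM and VEGFA to PDK1. No neighbours among these 9 differed by more than the larger SD. Compared within the same control library, ANKRD37 lay above KDM3A in 7 of 8, and so did BNIP3 above ADM. The other neighbours among the 9 kept their order in 2 to 6 of 8. CA9 stood apart, 3.34 log2 units below PDK1, at percentile 38.8. Of the 43 member windows, 30 held a summit of the authors' separate peak call on replicates 1 to 8, and so did 9 of the 10 leading windows, all but that of CA9.

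No member window passed the test for a change in accessibility after 30 minutes of dTAGV-1 (edgeR's quasi-likelihood test, Benjamini-Hochberg adjustment over all 185040 tested windows, threshold 0.05). Called were 0 of 43, where 0.215% of all tested windows were called, 395 lower and 2 higher. At an unadjusted p under 0.05 there was 1 member of 43, against 2.85% of all tested windows, and with DESeq2 the number called was also 0. The groups overlapped in all 43 members, against 0.0713% of all tested windows whose groups did not overlap. The fitted log2 fold changes of dTAGV-1 against control ran from −0.37 to 0.70 with a median of −0.021, beside a median of 0.0077 over all tested windows. Of the members 24 were below 0 (55.8%, against 48.2% of all tested windows) and 19 above. Their middle range, from the lower to the upper quartile, was −0.07 to 0.06, against −0.12 to 0.13 over all tested windows. Neighbouring windows were not independent: 13 of the 43 overlapped another window, and the 43 formed 36 separate regions.

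The precision set what could be missed. Standard errors were 0.13 to 0.37 on the log2 scale. The 95% interval lay wholly below a rise of 1 log2 unit in 42 of 43 windows and below a rise of 0.5 in 37. It lay wholly above a fall of 1 in 42 and above a fall of 0.5 in 36. The interval included 0 in 42.

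**Figure D1:**
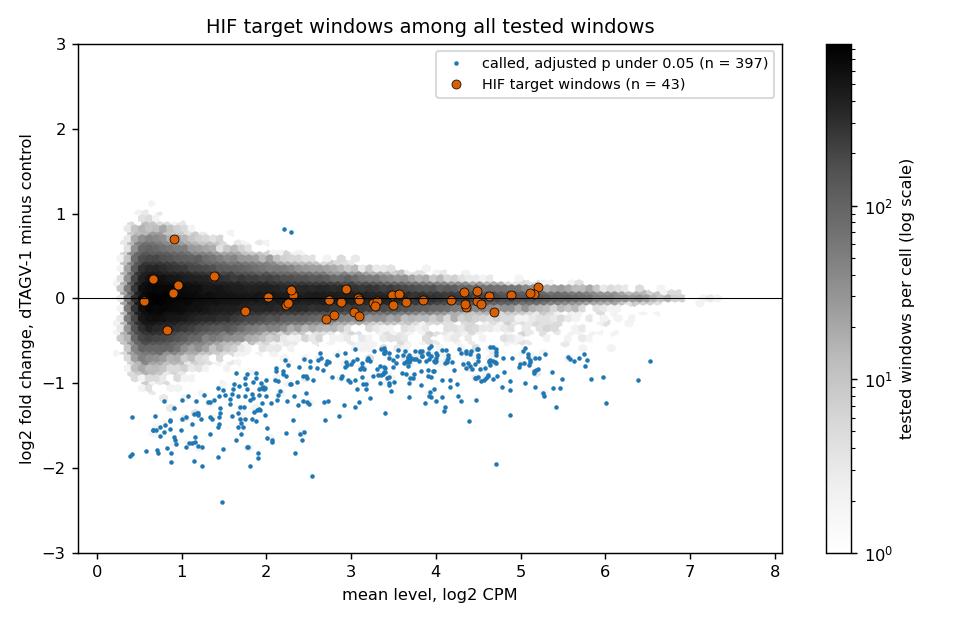
Log2 fold change, dTAGV-1 minus control, against mean log2 CPM for all tested windows (grey density on a log scale), the 397 called windows (blue) and the 43 member windows (orange). The members lie between −0.37 and 0.70, none among the called windows.

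**Figure D2:**
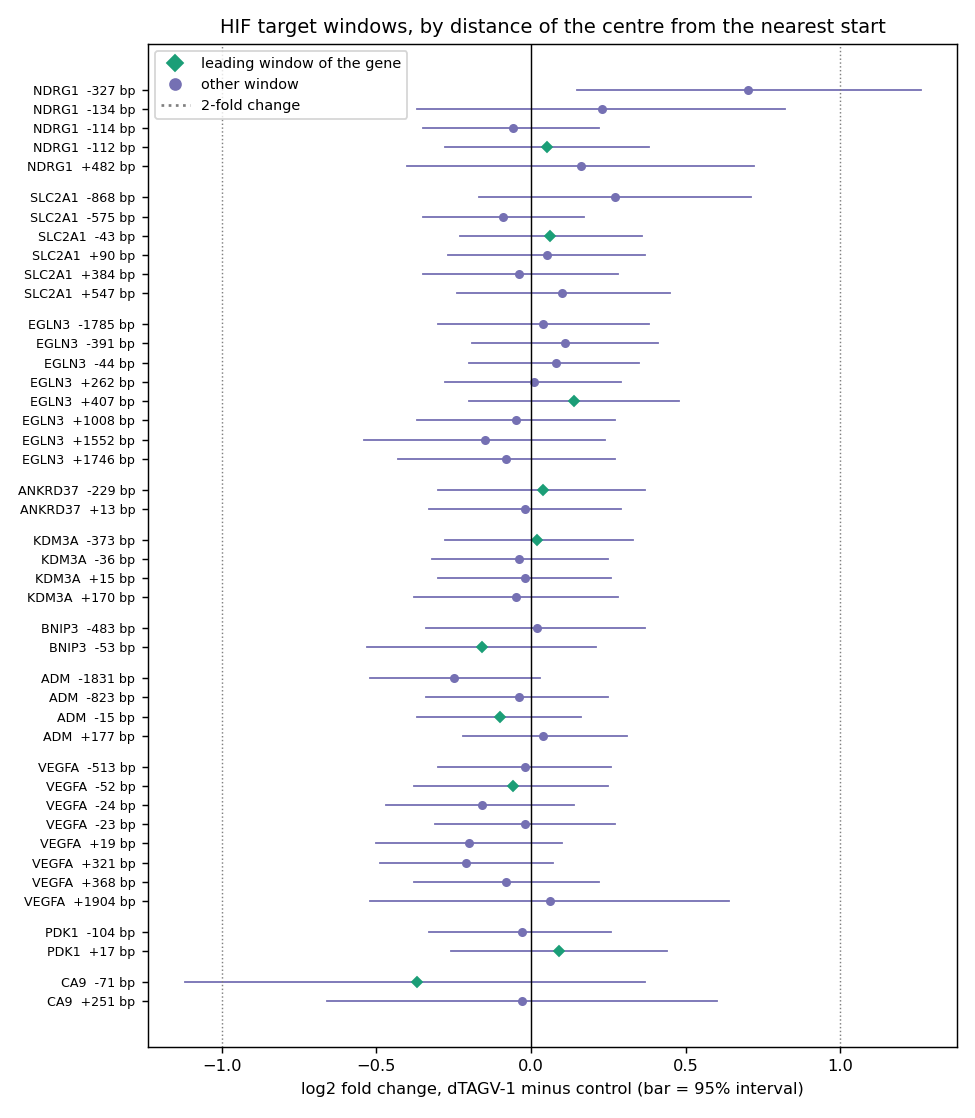
Log2 fold change, dTAGV-1 minus control, of each of the 43 member windows (points, diamonds for leading windows) with its 95% interval (bars), grouped by gene and ordered by distance from the nearest start in bp; dotted lines mark a log2 change of 1 in either direction. Of the 43 intervals 42 include 0, and the widest belong to windows of low accessibility at CA9, NDRG1 and VEGFA.

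VEGFA and ADM encode secreted factors. VEGFA is the main growth signal for blood vessels. Its leading window, chr6:43769932-43770332, is centred 52 bp upstream of a start, outside the gene. Control libraries ranged from 3.37 to 4.64 log2 CPM with a median of 4.41, and dTAGV-1 libraries from 2.92 to 4.57 with a median of 4.40. The groups covered nearly the same range, and replicate 12 was the low library of each. Fitted over both groups, the log2 fold change was −0.06 (SE 0.16, 95% interval −0.38 to 0.25, adjusted p = 1 in edgeR). The VEGFA window with the smallest p, chr6:43773293-43773693 in an exon of a noncoding transcript, had control levels of 2.71 to 3.37 (median 3.22) and dTAGV-1 levels of 2.66 to 3.27 (median 2.92). Its log2 fold change was −0.21 (SE 0.14, edgeR p = 0.140, adjusted p = 1, exact permutation p = 0.0693). The other 6 VEGFA windows ran from −0.20 to 0.06.

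ADM encodes adrenomedullin, a peptide that widens blood vessels. The leading window, chr11:10304858-10305258, is centred 15 bp upstream of the start and within 500 bp of a start of SBF2, so that accessibility there cannot be assigned to ADM alone. Control libraries ranged from 3.92 to 4.61 (median 4.38) and dTAGV-1 libraries from 3.95 to 4.48 (median 4.32). The groups overlapped along almost their whole length, with a log2 fold change of −0.10 (SE 0.13, interval −0.37 to 0.16, adjusted p = 1 in edgeR). An upstream window of ADM, chr11:10303042-10303442, centred 1831 bp before the start, had the smallest p of the gene. This window lies inside SBF2 and within 500 bp of a start of ADM-DT, so that it cannot be assigned to ADM alone either. Its control levels were 2.45 to 3.01 (median 2.83) and its dTAGV-1 levels 2.38 to 2.68 (median 2.56). The treated libraries sat toward the low end of the control range, with a log2 fold change of −0.25 (SE 0.14). The edgeR p was 0.0788 (adjusted p = 1) and the two-sided exact permutation p of the mean log2 CPM was 0.0186, unadjusted and among 15 windows tested in this way.

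CA9, SLC2A1 and PDK1 serve pH and glucose metabolism. CA9 is a carbonic anhydrase on the cell surface and among the most widely used markers of HIF activity. Its start window, chr9:35673657-35674057, is the one that holds the core shown above, and it was closed or nearly so, with 4 to 20 counts per library. Control libraries ranged from 0.19 to 2.85 log2 CPM (median 0.56) and dTAGV-1 libraries from −0.46 to 1.92 (median 0.63). The highest control value, that of replicate 12, lay far above the other 7, which reached 1.43. The log2 fold change was −0.37 (SE 0.37, interval −1.12 to 0.37, edgeR p = 0.320, adjusted p = 1, exact permutation p = 0.465), with −0.00 without control replicate 12 and −0.65 without dTAGV-1 replicate 11 (adjusted p = 1 in both). The other CA9 window, in an intron, had a log2 fold change of −0.03 (SE 0.31). A change at CA9 within the interval could not be told from none at this depth. The interval is not the limit of what the test could detect, and larger changes could also go uncalled.

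SLC2A1 encodes GLUT1, the basal glucose transporter. Its leading window, chr1:42958736-42959136, is centred 43 bp upstream of the start, outside the gene. Control levels were 4.11 to 5.33 (median 5.08) and dTAGV-1 levels 4.50 to 5.37 (median 5.08). The medians were equal, and the log2 fold change was 0.06 (SE 0.15, interval −0.23 to 0.36, adjusted p = 1 in edgeR). The SLC2A1 window with the smallest p was intronic, at chr1:42952684-42953084, with control levels of 0.76 to 2.02 (median 1.11), dTAGV-1 levels of 1.20 to 1.76 (median 1.46) and a log2 fold change of 0.27 (SE 0.22, edgeR p = 0.228, exact permutation p = 0.153).

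PDK1 is a kinase that holds back pyruvate from the mitochondrion. Its leading window, chr2:172555824-172556224, is centred 17 bp past the start in the untranslated region, close also to a start of PDK1-AS1. Control levels were 2.14 to 4.83 (median 4.47) and dTAGV-1 levels 3.61 to 4.89 (median 4.50). Replicate 12 was again lowest in each group and the remaining libraries overlapped. At PDK1 the log2 fold change was 0.09 (SE 0.17, interval −0.26 to 0.44, adjusted p = 1 in edgeR).

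BNIP3 is a mitochondrial protein that targets damaged mitochondria for autophagy. The leading window, chr10:131981820-131982220, is centred 53 bp upstream of the start and contains the crowded stretch of cores shown above. Control levels were 2.02 to 5.08 (median 4.81) and dTAGV-1 levels 3.68 to 4.96 (median 4.55). Apart from the low control replicate 12, the control libraries lay between 4.72 and 5.08 and the treated ones, apart from their own replicate 12, between 4.38 and 4.96. The fitted log2 fold change was −0.16 (SE 0.18, interval −0.53 to 0.21, adjusted p = 1 in edgeR), although the mean log2 CPM, 4.51 ± 1.02 in control and 4.53 ± 0.39 with dTAGV-1 (SD, n = 8 each), differed in the other direction. Without control replicate 12 the fitted value was −0.29 (SE 0.12, adjusted p = 1 in edgeR, unadjusted 0.019), and without replicates 11 and 12 of both groups −0.21 (SE 0.09, adjusted p = 0.964 in edgeR, unadjusted 0.0173).

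NDRG1 is a stress-responsive protein long used as a HIF target. Its leading window, chr8:133297168-133297568, had the highest control mean of all member windows, 5.03 ± 0.50 (SD, n = 8). Control levels were 3.86 to 5.50 (median 5.18) and dTAGV-1 levels 4.25 to 5.49 (median 5.28), which overlapped along nearly the whole range. This gave a log2 fold change of 0.05 (SE 0.16, interval −0.28 to 0.38, adjusted p = 1 in edgeR).

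An intronic NDRG1 window, chr8:133265930-133266330, centred 327 bp before an internal start, was the only member with an unadjusted p under 0.05. It was weakly accessible, with 3 to 24 counts per library. Control levels were 0.09 to 0.88 log2 CPM (median 0.51) and dTAGV-1 levels 0.36 to 1.92 (median 1.13). The dTAGV-1 library was the higher of each of the 8 same-numbered pairs, although the numbers are not known to pair the libraries, and the groups overlapped. In replicate 12 both libraries read 0.36 after rounding, with 3 counts in control and 4 with dTAGV-1, so that this pair was nearly tied. The log2 fold change was 0.70 (SE 0.28, interval 0.15 to 1.26, edgeR p = 0.0141, adjusted p = 1, unadjusted exact permutation p = 0.0151), which did not pass the test. The window holds GCGTG and not ACGTG.

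EGLN3 and KDM3A are oxygen-dependent enzymes that HIF itself induces. EGLN3 is one of the prolyl hydroxylases that mark HIF for VHL. Its leading window by level, chr14:34462167-34462567, belongs to transcripts that begin far upstream and lies within 500 bp of a start of SPTSSA. Control levels were 3.46 to 5.46 (median 5.17) and dTAGV-1 levels 4.52 to 5.53 (median 5.32), with a log2 fold change of 0.14 (SE 0.17, interval −0.20 to 0.48, adjusted p = 1 in edgeR). The window at the downstream start of EGLN3, chr14:33950925-33951325, was added after its values were seen, because the leading one is shared with SPTSSA. There control levels were 3.82 to 4.61 (median 4.25) and dTAGV-1 levels 3.81 to 4.60 (median 4.40). The ranges were nearly the same, with a log2 fold change of 0.08 (SE 0.14, interval −0.20 to 0.35).

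KDM3A is a histone H3 lysine 9 demethylase. Its leading window, chr2:86442605-86443005 in an intron, had control levels of 3.59 to 4.89 (median 4.64) and dTAGV-1 levels of 3.94 to 4.87 (median 4.75). The log2 fold change was 0.02 (SE 0.15, interval −0.28 to 0.33, adjusted p = 1 in edgeR). The KDM3A window with the smallest p, chr2:86442294-86442694, overlaps it and gave −0.05 (SE 0.16, edgeR p = 0.748, exact permutation p = 0.922). Windows in the untranslated region were added after their values were seen. The one that holds the core shown above, chr2:86440616-86441016, gave −0.02 (SE 0.14, interval −0.30 to 0.26). Its neighbour, chr2:86441135-86441535, gave −0.04 (SE 0.14, interval −0.32 to 0.25). ANKRD37 encodes a small ankyrin-repeat protein, and its leading window, chr4:185396382-185396782, holds 4 matches to ACGTG. Control levels were 3.46 to 5.24 (median 4.94) and dTAGV-1 levels 3.94 to 5.33 (median 4.90), so that the groups again covered the same range. ANKRD37 thus had a log2 fold change of 0.04 (SE 0.17, interval −0.30 to 0.37, adjusted p = 1 in edgeR).

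**Figure D3:**
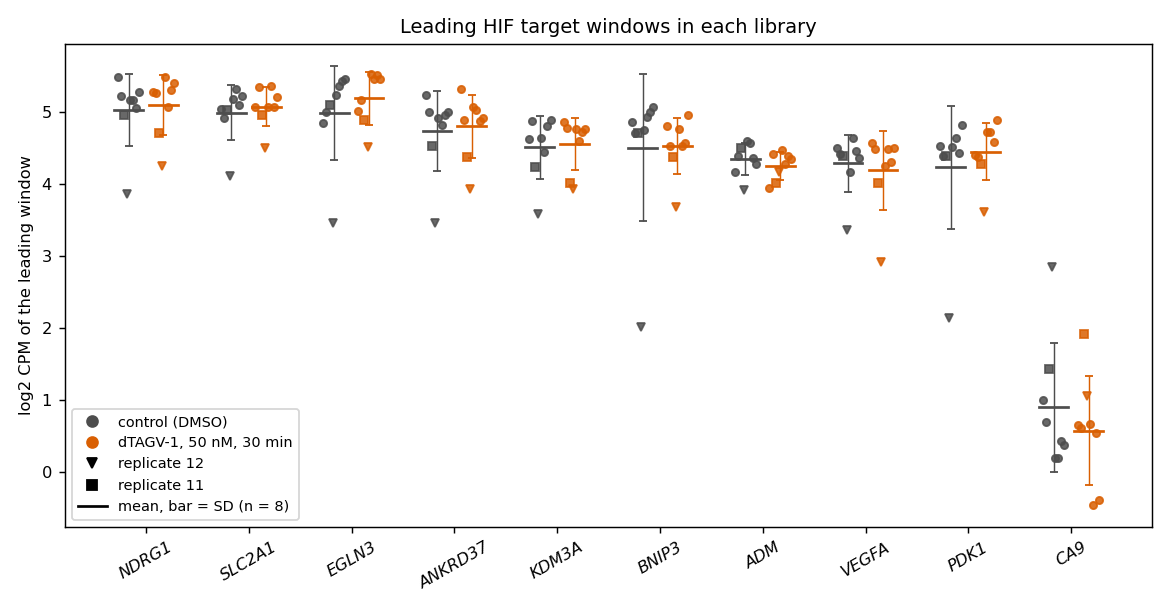
Log2 CPM of the leading window of each of the 10 genes in each of the 8 control (grey) and 8 dTAGV-1 (orange) libraries, with the group mean and SD; triangles are replicate 12 and squares replicate 11. The groups overlap at every gene, CA9 lies far below the others, and replicate 12 is the low point of most groups.

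Replicate 12 of each group stood low at most of these windows. Library totals over the windows were 2275856 to 13671039, the lowest that of control replicate 12. The windows of the top decile held 31.9% of its counts, where the remaining 7 control libraries had 45.9% to 49.5%. It was the lowest control library in 9 of the 10 leading windows and in 32 of all 43 members, and the highest at CA9. dTAGV-1 replicate 12 was lowest of its group in 8 of 10 leading windows. Without replicates 11 and 12 of both groups 0 of the 43 windows were called. Of 9 markers of HEK293T all had windows, and 8 reached percentiles 85.7 to 98.7 of control level. LHX1 was at 1.48, its highest level being −1.95 log2 CPM, near the lowest of all windows. Whether its starts are closed or were not countable was not tested. Among 10 markers of other cell types, 5 had no window, PTPRC, CD3E, ALB, MYH6 and KRT5.

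Counts summed over the non-overlapping windows of a gene gave more precise values, and none of the 10 genes passed the test. Called were 0 of 10, where 1.52% of 28041 genes with windows were called, 424 of 427 of them lower. Of the 10, 0 had an unadjusted p under 0.05, the smallest being 0.253 for VEGFA. Fold changes were above 0 in 5 genes and below 0 in 5, with a median of 0.0077 beside 0.0099 over all genes. All 10 intervals included 0 and ended below a rise of 0.5 log2 units.

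VEGFA, with 6 windows summed, ranged from 6.28 to 6.66 log2 CPM in control and from 6.17 to 6.58 with dTAGV-1, a log2 fold change of −0.08 (SE 0.07, interval −0.23 to 0.06). SLC2A1, with 5 windows, gave 6.28 to 6.63 against 6.18 to 6.59 and a log2 fold change of 0.02 (SE 0.07, interval −0.12 to 0.16). EGLN3, with 8 windows, gave 6.71 to 7.09 against 6.80 to 7.16 and 0.06 (SE 0.07, interval −0.08 to 0.21). These 3 had SDs of 0.15 or less in each group, well below those of their leading windows. The EGLN3 sum includes its leading window and further windows at or inside SPTSSA, so that it cannot be assigned to EGLN3 alone. NDRG1 gave 0.08 (interval −0.11 to 0.27), PDK1 0.05 (−0.18 to 0.28), ANKRD37 0.02 (−0.19 to 0.23), KDM3A −0.01 (−0.16 to 0.15), ADM −0.08 (−0.23 to 0.07) and BNIP3 −0.14 (−0.39 to 0.11) on the log2 scale. CA9 was the least precise at −0.26, with an interval from −1.0 to 0.48, which spans a fall of 49.9% to a rise of 39.6%. Its sign rested on 1 library: the value was 0.04 without control replicate 12 and −0.45 without dTAGV-1 replicate 11, and −0.06 without replicates 11 and 12 of both groups. Summed BNIP3 was −0.21 without control replicate 12 (adjusted p = 0.472 in edgeR, unadjusted 0.0159) and −0.19 without replicates 11 and 12 of both groups (adjusted p = 0.514, unadjusted 0.0215).

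**Figure D4:**
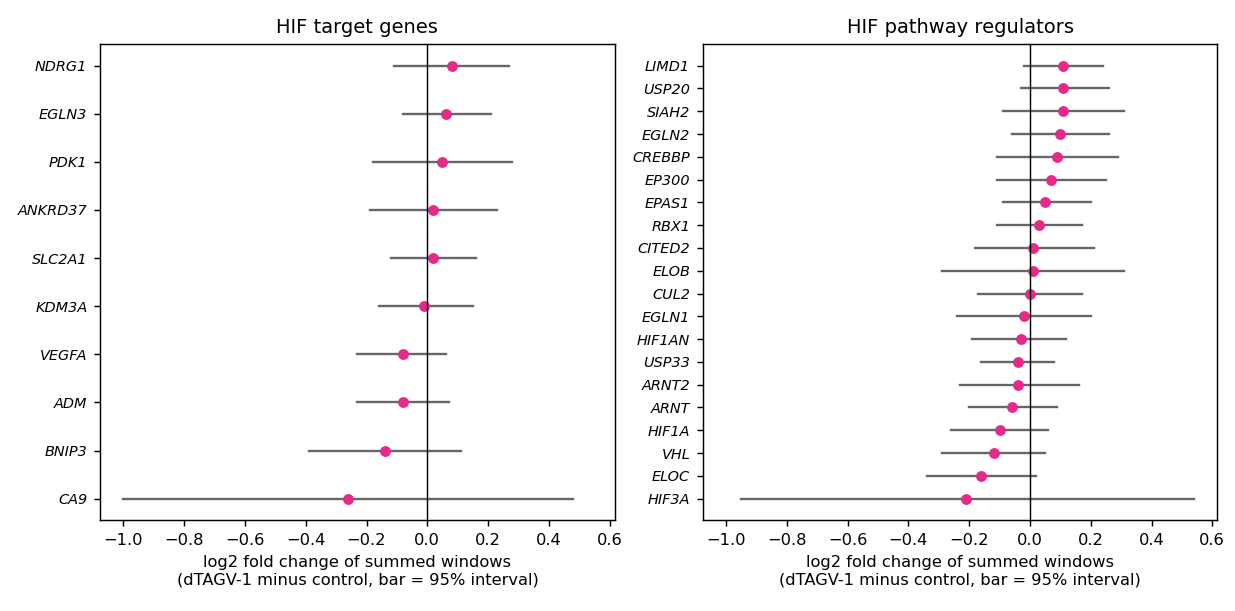
Log2 fold change of the summed windows, dTAGV-1 minus control, with its 95% interval (bars) for the 10 HIF target genes (left) and the 20 HIF pathway regulators (right), each ordered by value. All 10 intervals on the left include 0, and the widest is that of CA9, from −1.0 to 0.48.

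Members with and without the ACGTG core are set side by side as a description. The 15 members with ACGTG had a median log2 fold change of −0.03 (range −0.37 to 0.14). The 28 without had a median of 0.00 (range −0.25 to 0.70). Over all tested windows the medians were 0.01 with and 0.01 without ACGTG. Fold changes on both sides of the 2000 bp limit are also given with no test. The members farthest out were an ADM window at 1831 bp (−0.25) and a VEGFA window at 1904 bp (0.06), and the nearest ones left out were an ADM window at 2141 bp (0.06) and an EGLN3 window at 2361 bp (0.21).

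The genes that run the oxygen-sensing pathway were examined in the same fit. A list of 20 regulators, from VHL and its ligase partners to the HIF subunits, hydroxylases and coactivators, had 82 windows, 78 of them tested. Called were 0, with 1 at an unadjusted p under 0.05, in LIMD1 (log2 fold change 0.44), beside 0.215% and 2.85% of all tested windows, and the median log2 fold change was −0.0024. The leading window of VHL, the ligase subunit that dTAGV-1 engages, at chr3:10141519-10141919, had control levels of 4.02 to 4.93 (median 4.81) and dTAGV-1 levels of 4.06 to 4.83 (median 4.57). Its log2 fold change was −0.16 (SE 0.14, interval −0.44 to 0.12, adjusted p = 1 in edgeR). HIF1A, the alpha subunit present in most cells, ranged from 4.02 to 5.41 in control and from 4.17 to 5.35 with dTAGV-1 at its leading window, a log2 fold change of −0.09 (SE 0.16). EPAS1, which encodes HIF-2 alpha, gave 0.09 (SE 0.14), ARNT, the shared partner, −0.05 (SE 0.14), and EGLN1, the main hydroxylase in most cells, 0.02 (SE 0.19). The groups overlapped at each of these 5 leading windows.

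A further 62 genes known to be induced by HIF had 236 windows at 59 of the genes, with EPO, TF and C4orf3 having none. Of 219 tested windows 2 were called lower and 0 higher, with 5 at an unadjusted p under 0.05, beside 0.215% and 2.85% of all tested windows, and a median log2 fold change of −0.014. The remaining 3 of the 5, named after their values were seen, lay in BNIP3L (0.62), KDM4C (−0.66) and GYS1 (−1.16, overlapping the called window). Called genes after summing numbered 0 of 57 tested. GPI and MIF were not among those tested, because their summed windows held 0 counts in every library. The reason for the missing counts was not tested. The called pair was intronic and lay in GYS1, the muscle glycogen synthase, and MXI1, a MYC antagonist. At GYS1, chr19:48976169-48976569, mean log2 CPM was 1.73 ± 0.54 in control and 0.65 ± 0.43 with dTAGV-1 (SD, n = 8 each). The lowest control library, at 1.16, lay just above the highest treated one, at 1.15. The fitted log2 fold change was −1.22 (SE 0.26, adjusted p = 0.0106 in edgeR). The call was lost when control replicate 10 (adjusted p = 0.0676), control replicate 11 (0.0739) or dTAGV-1 replicate 14 (0.0518) was left out. At MXI1, chr10:110225658-110226058, the means were 4.36 ± 0.39 and 3.68 ± 0.35 (SD, n = 8 each), and the groups overlapped. The fitted log2 fold change was −0.70 (SE 0.15, adjusted p = 0.0152 in edgeR). This call was lost in 7 of the fits that left out 1 library, without control replicates 13, 14, 15 or 16 or dTAGV-1 replicates 9, 10 or 16 in turn (adjusted p = 0.0627 to 0.094). Neither window holds the ZNF143 core as searched, and the leading windows of GYS1 and MXI1, at 0.09 and −0.06, were not called.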

How the data were processed

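ATAC-seq, in which the transposase Tn5 cuts open chromatin, was analysed in 16 libraries (control and dTAGV-1, replicates 9 to 16) of the HEK293T clone. The deposited table gives whole-number counts per window of 401 bp, unnormalized, as the values and, per the file headers, the columns show, with a −log10 q value per window from the authors' peak calling, used here only to rank overlapping windows. The deposited summit list of replicates 1 to 8 gives the authors' −log10 score. The submitters' processing notes name cutadapt 1.8.1, Bowtie2 2.4.4, SAMtools 1.9 and hg38. The peak caller, read filters, Tn5 shift and counting tool are not given in the sources used here. If fragment ends were counted, the counts come in pairs.

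Counts were tested with edgeR 4.0.16 (R 4.3.3): filterByExpr, TMM, glmQLFit and glmQLFTest, both groups sharing 1 spread, Benjamini-Hochberg over all tested windows or genes, two-sided. Standard errors and 95% intervals come from the fitted statistic. Alternatives used DESeq2 1.42.0, limma 3.58.1 and scipy 1.17.1. For summed genes, overlapping windows were dropped from the highest −log10 q down. The fit was also run on simulated counts, drawn with 1 spread for all windows and no library like control replicate 12. That run therefore does not show how the fit handles such a library. The totals, 2275856 to 13671039, and 8 libraries per group set the precision.

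Named windows were, per gene, the leading window and the one with the smallest p, the leading windows of VHL, HIF1A, EPAS1, ARNT and EGLN1, and every called window of the lists. The members and lists were chosen with earlier results of these data known. Replicates 1 to 8 have no counts here and were used only through the summit list.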

Additional observations from a re-analysis of the deposited data

Results flagged for a closer look

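In 12 of the 30 sets of 8 values examined, 1 library lay far from the other 7. Such a gap is marked by chance in about 1 of 20 sets, and neighbouring sets share the same libraries. The library was control replicate 12 in 8 of them and dTAGV-1 replicate 12 in 4, and the part of their depth and flatness in these values was not tested.

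All values are log2 CPM at the leading window of the gene. Control replicate 12 was lowest at ANKRD37 with 3.46 (others 4.54 to 5.24), at BNIP3 with 2.02 (others 4.72 to 5.08), at EGLN3 with 3.46 (others 4.86 to 5.46) and at NDRG1 with 3.86 (others 4.96 to 5.50). It was also lowest at PDK1 with 2.14 (others 4.39 to 4.83), at SLC2A1 with 4.11 (others 4.92 to 5.33) and at VEGFA with 3.37 (others 4.17 to 4.64). At CA9 it was highest, with 2.85 (others 0.19 to 1.43).

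dTAGV-1 replicate 12 was lowest at BNIP3 with 3.68 (others 4.38 to 4.96), at PDK1 with 3.61 (others 4.29 to 4.89), at SLC2A1 with 4.50 (others 4.97 to 5.37) and at VEGFA with 2.92 (others 4.02 to 4.57). Its median deviation over the 10 leading windows was −0.92 log2 units, beside −1.19 for control replicate 12.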

How the results depend on the processing

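The 10 genes gave 0 called windows and 0 called summed genes under every alternative run, and the 20 regulators 0 called windows. Over all windows 397 were called. With a replicate block 753 were called, and without replicates 11 and 12 of both groups 781. Leaving out 1 library gave 321 to 632, the highest without control replicate 12. Deviations of the levels, not the levels themselves, correlated at 0.03 to 0.34 between libraries with the same number, with 5 of 8 pairs over 0.1. By this measure 5 of 8 control libraries correlated best with their own number. That is a hint of pairing from the data, not from the design, and the numbers were not taken as pairs because not every pair was over 0.1.

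The other HIF targets, whose alternatives were added after seeing the data, gave 2 called windows, 1 when windows with a mean under 20 counts were left out, and 1 to 3 when 1 library was left out. The NDRG1 intronic window kept an unadjusted p of 0.0075 to 0.0468 and an adjusted p of 0.748 to 1 over 22 settings, and was not tested with the mean of 20 counts.

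Of 357 log2 fold changes of the 15 named windows of the 10 genes, 342 kept their sign, none was called and 15 turned sign at a size of 0.06 or less. BNIP3 and the KDM3A window of smallest p turned to 0.01 and 0.02 in mean log2 CPM, and VEGFA to 0.00 without replicates 11 and 12. Leaving out 1 library gave −0.06 to 0.11 at ANKRD37, −0.05 to 0.08 at KDM3A, −0.04 to 0.13 at NDRG1, −0.02 to 0.16 at PDK1, −0.01 to 0.12 at SLC2A1, −0.13 to 0.03 at VEGFA, −0.29 to −0.09 at BNIP3 and −0.65 to −0.00 at CA9 (leading windows). The cause of these turns was not tested. Low counts limit precision at CA9 and at intronic NDRG1 windows.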
